A study of Ditylenchus destructor and Heterodera glycines and Meloidogyne incognita with 162 samples.

Results

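The genes described here are 150 genes of the soybean cyst nematode Heterodera glycines whose RNA was low at the start of embryogenesis and present at each of 6 later stages, out of 18219 genes in the count table. They were chosen from measured values. The count of a gene was divided by the total of its library and given as CPM, the count per 1000000 counts, and the median over the libraries of a stage was its level there. The score of a gene was the log2 ratio of its lowest level among 6 stages (24-44 cell, 64-78 cell, 1.5-fold, 2-fold, the Moving stage and L1) to the higher of its levels at Zygote and 2-cell, with 1 CPM added to each, and the 150 highest scores were taken among 1907 above 0. The 4-cell, 8-cell and Comma stages had no part in the choice, and comparisons between stages are tested for these only.

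RNA of whole single embryos was sequenced from the plant-parasitic nematodes Ditylenchus destructor, Meloidogyne incognita and H. glycines, in 162 libraries made with Smart-seq2, which copies polyadenylated RNA into full-length cDNA and amplifies it. H. glycines of the strain Hg5# was raised on soybean roots, the eggs were released from mature cysts, and the labels name no treatment or engineered allele. Its 54 libraries covered 11 stages, which were, by cell number, Zygote, 2-cell, 4-cell and 8-cell, then 24-44 cell and 64-78 cell, and, by shape and movement, Comma, then 1.5-fold, 2-fold, Moving and last L1, with 5 libraries per stage except for 4 at 2-fold. Each library was 1 embryo, kept from a larger number that were sampled at the stage, and nothing states that the embryos of a stage were taken from different cultures, so that a p-value here reflects how much these embryos vary.

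In animals the first cell divisions run on RNA that the mother placed in the egg. Transcription from the embryo's own genome starts later, at zygotic genome activation, while part of the maternal RNA is broken down. Comma, 1.5-fold and 2-fold name the shape and length of the folding embryo, Moving embryos twitch inside the egg shell, and L1 is the juvenile formed inside it. Neither the files nor the tables used here pair the H. glycines IDs with gene names, so the genes are given by ID, position and level, with no account of their function, and no sequence is printed. Positions are those of the deposited table, for which the sources used here name no genome build.

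Library totals were between 181109 counts in Zygote replicate 3 and 10955776 counts in 4-cell replicate 5, with a median of 4166536. Moving replicates 1 and 2 differed in 17 genes and had totals of 5241872 and 5241863, which is less than sampling noise, and were counted as 1 library, so that Moving had 4. The 5 Comma libraries stood apart, since the 10% of genes with the longest genomic spans held 26.7% to 30.2% of their counts. The share was 22.2% in Moving replicate 1 and lower in the other libraries, 9.03% to 13.2% in the other Moving embryos. The markers of tissues could not be checked because the IDs carry no names.

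At Zygote and 2-cell most of the 150 genes were near the limit of detection, and the rule favoured low early levels. The higher of the early levels was 0 in 32 genes and under 1 CPM in 102, with a median of 0.415 CPM and a highest value of 43.2 CPM. The lowest later level had a median of 11.2 CPM and was between 3.83 and 482 CPM. The score had a median of 2.76. When 1 replicate number was left out at every stage at once, 71, 89, 83, 89 and 101 of the 150 were taken again for numbers 1 to 5. Leaving out single embryos, 127 were taken again without Zygote replicate 3 and 122 without Moving replicate 1, and with means in place of medians 59 were. At the limit of the choice, HG09949 was the last gene taken, with a score of 2.24 from 4.70 CPM at its lowest later stage against 0.203 CPM early, and HG17719 was the first left out, with 2.23 from 7.48 CPM against 0.804 CPM.

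The medians conceal embryos that departed from them, in both directions. Of the 10 early libraries, a gene was at 0 counts in a median of 4, and 64 genes were at 0 in 5 or more. Of the 28 later libraries, 80 genes had a count in every one, 63 were at 0 in 1 to 3 and 7 were at 0 in 4 or more, with 5 as the most. HG10765 (contig 155, positions 1360175 to 1361143, + strand), named after its values were seen, was the only one of the 150 with 0 counts in all 10 early libraries, and also the only one with every later library above every early one. Over the whole table, 0.0224% of 17880 genes with a count had that pattern, and nothing is read from the single case since these stages chose the genes. The level of HG10765 over the 28 later libraries was 8.54 ± 5.60 CPM (mean ± SD), at least 133-fold higher than the limit that 3 counts over the 10 early libraries would give.

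HG10905 (contig 156, 654885 to 661577, − strand) had the highest score, 5.77. It was at 0.228 CPM in 1 Zygote embryo and at 0 in the other 4, and between 0.173 and 7.27 CPM at 2-cell. It was at 0, 1.58, 43.5, 0 and 2.01 CPM at 4-cell and at 2.83, 8.42, 10.7, 0.172 and 1.15 CPM at 8-cell. The 24-44 cell embryos were mixed, with 0.444, 239, 4.66, 94.9 and 68.1 CPM, while the 64-78 cell embryos were all high, with 368, 423, 128, 375 and 219 CPM. Every embryo at 1.5-fold and the stages after it had 52.3 CPM or more. At Comma the gene had 44.4, 83.9, 32.4, 27.9 and 0 CPM, and the change against 8-cell was 2.92 on the log2 scale (SE 1.43, adjusted p = 0.119 in edgeR's quasi-likelihood test).

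HG00398 (contig 010, 377140 to 380715, + strand) came next, with a score of 4.77, and its stage medians did not move in 1 direction through the early divisions. At 8-cell it was at 0.314, 47.5, 2.66, 0.172 and 0 CPM, and at 4-cell at 1.05, 33.0, 8.08, 18.4 and 27.8 CPM. The median was thus 0.314 CPM at 8-cell, against 18.4 CPM at 4-cell, while the groups overlap. The change between these stages was −0.940 on the log2 scale (SE 1.58, edgeR adjusted p = 0.948), and the gene was not called. Its levels at the 6 later stages of the rule were 37.4 to 68.9 CPM. The 5 Comma embryos had 329, 288, 180.3, 376 and 242 CPM, all above every 8-cell embryo, with a change of 4.64 on the log2 scale (SE 1.38, edgeR adjusted p = 0.0166).

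HG03170 (contig 041, 293304 to 297286, − strand) had the score 4.64. Its 8-cell embryos had 0.314, 25.5, 253, 30.0 and 6.59 CPM and its 4-cell embryos 1.22, 2.26, 25.2, 7.94 and 0.821 CPM. The change between these stages was 3.10 on the log2 scale (SE 1.44), with an adjusted p of 0.605 from edgeR's quasi-likelihood test. The gene was highest at 1.5-fold, with 485, 450.4, 552, 741 and 536 CPM, and then lower at 2-fold, Moving and L1, with medians of 289, 231 and 54.9 CPM. The plot of these genes shows how far single embryos lie from the medians.

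**Figure D1:**
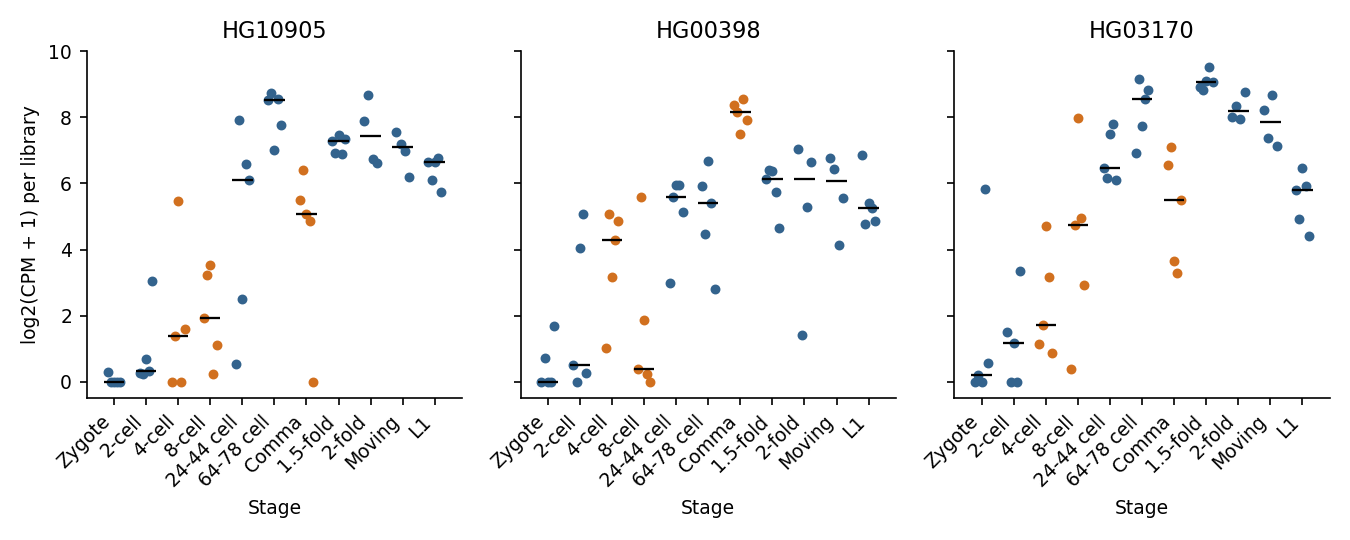
Levels of the 3 genes with the highest scores, HG10905, HG00398 and HG03170, as log2(CPM + 1) in each library (points) by stage, with the stage median as a line. Blue points are stages that the rule used and orange points are the 4-cell, 8-cell and Comma stages, which it did not use. The 24-44 cell embryos of HG10905 span 0.444 to 239 CPM.

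The 150 genes together held a small part of each library, and the median of that part was larger at each stage from 4-cell to Comma. Their share of the counts had a median of 0.0872% at Zygote, 0.0837% at 2-cell, 0.135% at 4-cell, 0.294% at 8-cell, 0.567% at 24-44 cell, 0.658% at 64-78 cell, 1.84% at Comma, 1.21% at 1.5-fold, 1.17% at 2-fold, 1.12% at Moving and 1.07% at L1. The 8-cell embryos, at 0.207% to 0.393%, overlapped the 4-cell embryos, at 0.119% to 0.258%. All 5 embryos of the 24-44 cell stage, which the rule used, lay above the 8-cell embryos, at 0.403% to 0.631%. These shares rest on the sum and can be carried by few genes, and a single library gave its 3 highest members between 12.3% (Comma replicate 2) and 47.6% (Zygote replicate 1) of the summed counts.

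**Figure D2:**
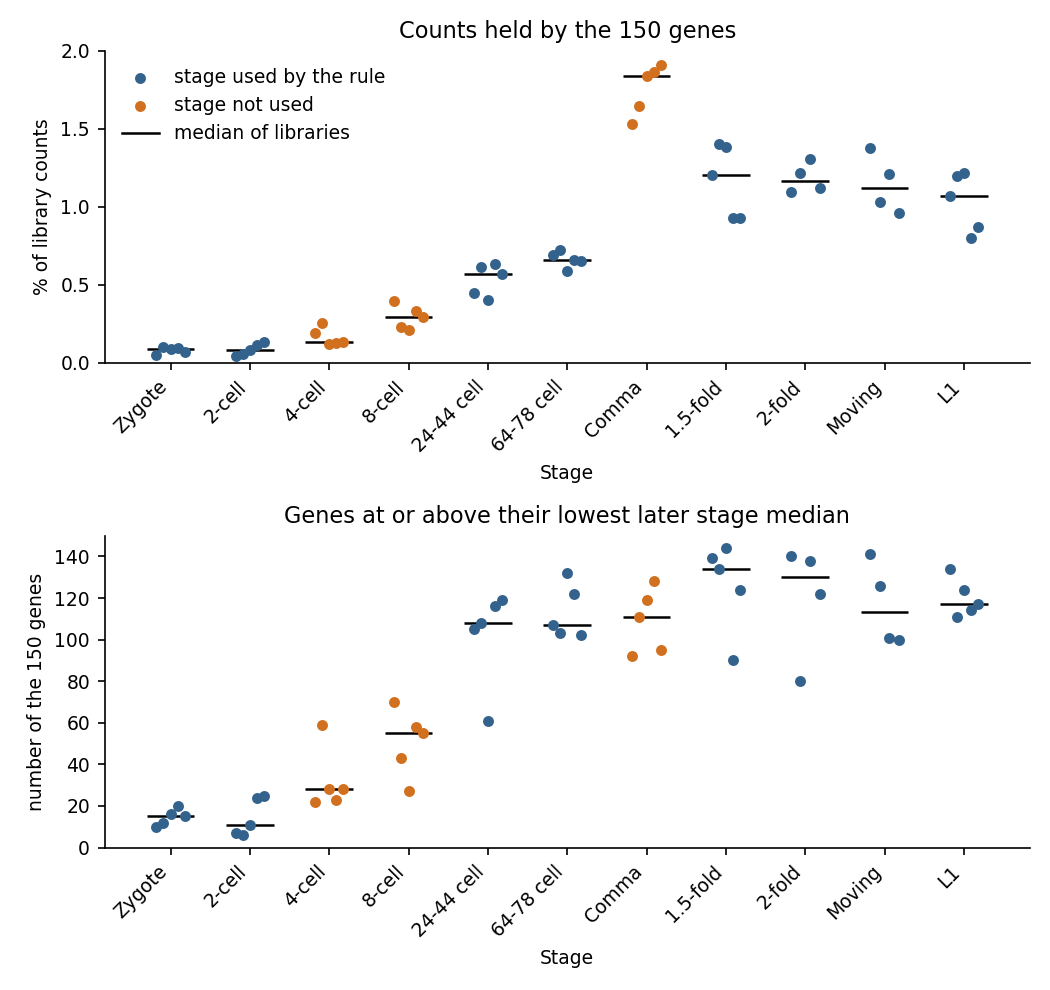
Upper panel, share of each library's counts held by the 150 genes (%); lower panel, number of the 150 genes at or above their own lowest later stage median, each by stage. Points are libraries, blue for stages that the rule used and orange for the others, and lines are medians of libraries. The 8-cell embryos hold 27 to 70 such genes and the 4-cell embryos 22 to 59.

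Counted gene by gene, a member was taken to have reached its later range in a library when its CPM was at or above its lowest later level. The median number over embryos was 15 at Zygote, 11 at 2-cell, 28 at 4-cell, 55 at 8-cell, 108 at 24-44 cell, 107 at 64-78 cell, 111 at Comma, 134 at 1.5-fold, 130 at 2-fold, 113.5 at Moving and 117 at L1. At the later stages of the rule the number is high by construction, since every member has its stage median at or above that level. The rule likewise kept it low at Zygote and 2-cell. Only 4-cell, 8-cell and Comma had no part in the choice, so nothing is read from the step between 8-cell and 24-44 cell. At 8-cell the embryos had 70, 43, 27, 58 and 55 genes in their later range. At 4-cell they had 22, 59, 28, 23 and 28, so that replicate 2 stood apart. Thinning the libraries to 750757 counts, the smallest total of the 4-cell and 8-cell stages, changed the medians little, to 26 at 4-cell, 58 at 8-cell and 101 at 24-44 cell.

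By stage medians, the genes differed in when they came into that range. At 8-cell 38 of the 150 were at or above their lowest later level, and at 4-cell 15 were. Of these, 7 were there at both stages, 31 at 8-cell and not at 4-cell, and 8 at 4-cell and not at 8-cell. The other 104 had reached it at neither. On the log2 scale the distance between the early level and the lowest later level was covered to a median of 73.3% at 8-cell (quartiles 17.0% and 100.08%) and 34.3% at 4-cell (4.47% and 68.8%). The level was above the early one in 123 genes at 8-cell and in 117 at 4-cell. The numbers in range were 60 at 8-cell and 26 at 4-cell when the set was rebuilt with means. With TMM library sizes they were lower, 26 at 8-cell and 14 at 4-cell. Rebuilt without replicate number 1, 3 or 4, it had 35, 30 and 27 genes in range at 4-cell, without number 3 it had 66 at 8-cell, and without Moving replicate 1 it had 25 at 4-cell.

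**Figure D3:**
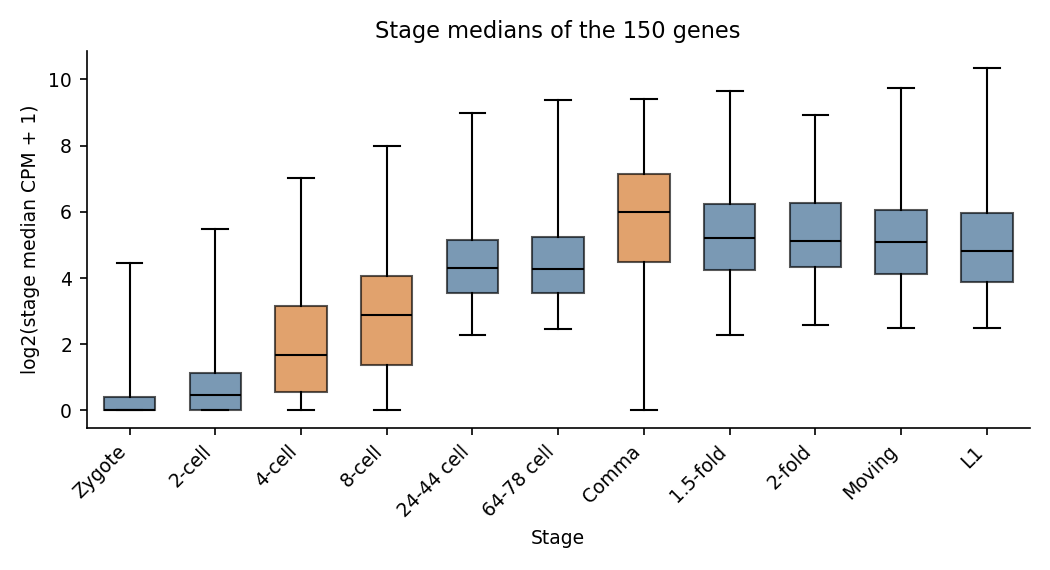
Stage medians of the 150 genes as log2(stage median CPM + 1), one box per stage. The box spans the quartiles, the line is the median over genes and the whiskers reach the lowest and highest gene; blue boxes are stages that the rule used and orange ones are not. The medians over genes are 2.22 CPM at 4-cell, 6.30 CPM at 8-cell and 62.9 CPM at Comma.

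By stage medians, the genes farthest on at 4-cell were HG05508 and HG13146, and their 8-cell medians were 0 and 40.0 CPM. HG05508 (contig 073, 986807 to 990418, + strand) was at 0, 0, 159.8, 0 and 19.2 CPM at 8-cell and at 54.8, 27.2, 23.0, 0 and 0.456 CPM at 4-cell, while its lowest later level was 8.89 CPM. HG13146 (contig 185, 391067 to 411471, + strand), with a lowest later level of 12.0 CPM, was at 30.2, 50.3, 40.0, 19.7 and 41.3 CPM at 8-cell and at 177, 77.9, 28.3, 0.481 and 1.004 CPM at 4-cell. Thus HG13146 was in range in every 8-cell embryo and in 3 of 5 at 4-cell. For HG05508 the change from 4-cell to 8-cell was 0.733 on the log2 scale (SE 1.92, edgeR adjusted p = 0.969). For HG13146 the change was −0.833 (SE 1.14, edgeR adjusted p = 0.929), so that neither gene was called. At 8-cell 19 of the 150 genes had a median of 0, and 3 of these had no count in any of the 5 embryos. Of the 19, HG12321 (contig 172, 1970199 to 1974536, + strand) and HG03804 (contig 045, 923789 to 926914, − strand) had the highest scores, and both had counts in 2 embryos. At 24-44 cell HG12321 had 22.4, 34.7, 6.41, 10.3 and 54.9 CPM, against 0, 0, 10.7, 5.66 and 0 CPM at 8-cell, where only replicate 3 reached into the later values. HG03804 had 35.1, 13.5, 36.1, 0 and 0 CPM at 24-44 cell and 60.9, 0, 0, 0 and 17.5 CPM at 8-cell, so that the stages overlap.

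Whether the 8-cell embryos differed from the 4-cell embryos was tested with edgeR's quasi-likelihood test over 8061 genes that passed its filter on low counts. After Benjamini-Hochberg adjustment over these genes 0 were higher and 0 lower, which is 0% in either direction, and 662 had an unadjusted p under 0.05. DESeq2 called 485 genes of 14169, of which 366 were lower and the rest higher. Without 4-cell replicate 2 edgeR called 130 genes, 105 of them lower, and without 4-cell replicate 4 it called 104, 101 of them lower, with 0 of the 150 in either case. Of the 150 genes, 112 passed the filter and 0 were called in either direction by edgeR, with a smallest adjusted p of 0.421. DESeq2 called 1 of them higher, HG05718, and 1 lower, HG12295. In edgeR 5 had an unadjusted p under 0.05, and all 5 were higher at 8-cell, namely HG07780, HG13562, HG01390, HG02307 and HG03170, of which all but HG07780 and HG03170 were named after their values were seen.

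HG01390, on contig 023, had 75.7, 50.7, 59.9, 124.8 and 22.9 CPM at 8-cell, against 7.52, 19.5, 16.5, 0 and 3.56 CPM at 4-cell, so that the groups do not overlap. The change was 2.76 on the log2 scale, with an adjusted p of 0.526 in edgeR. It was the only gene of the 150 with every 8-cell embryo above every 4-cell embryo, 0.667% of them, while 0.521% of 15558 genes with a count had that pattern. In the other direction, 3 genes of the 150, or 2%, had every 8-cell embryo below every 4-cell embryo, against 0.765% of all genes. These were HG12295, HG15359 and HG03732, each with 0 counts in all 5 embryos at 8-cell. At 4-cell HG12295 had 29.0, 11.3, 0.311, 0.120 and 0.0913 CPM. HG15359 had 0.175, 13.4, 0.311, 0.120 and 0.0913 CPM there, and HG03732 had 0.175, 0.453, 2.80, 0.120 and 2.74 CPM. The lowest of these values rest on few counts. Library totals were also smaller at 8-cell, with a median of 3490595 counts against 5714781 at 4-cell, so that nothing is read from the 3 genes. HG01390, HG15359 and HG05718 were likewise named after their values were seen.

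The direction over the whole set can be given only as a description. The 8-cell level was above the 4-cell level in 104 of the 150 genes, below it in 43 and equal in 3. That is 69.3% above, and the figure was 46.6% over 11274 genes with a level at either stage. Stage medians were more than 1 log2 unit higher at 8-cell in 71 of the 150 genes, or 47.3%, against 16.8% of all genes, and more than 1 unit lower in 21, or 14%, against 19% of all genes. The median log2 difference of stage medians was 0.96 in the 150 genes and −0.10 in all genes. In edgeR without a filter, the median fitted change was 0.66 over all 150 and −0.18 over all genes. Between 4-cell and 2-cell, a stage that the rule used, 3 of the 150 had every 4-cell embryo above every 2-cell embryo, against 0.488% of all genes, and between 24-44 cell and 8-cell 6 had no overlap upward, against 1.52%, from which nothing is read.

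**Figure D4:**
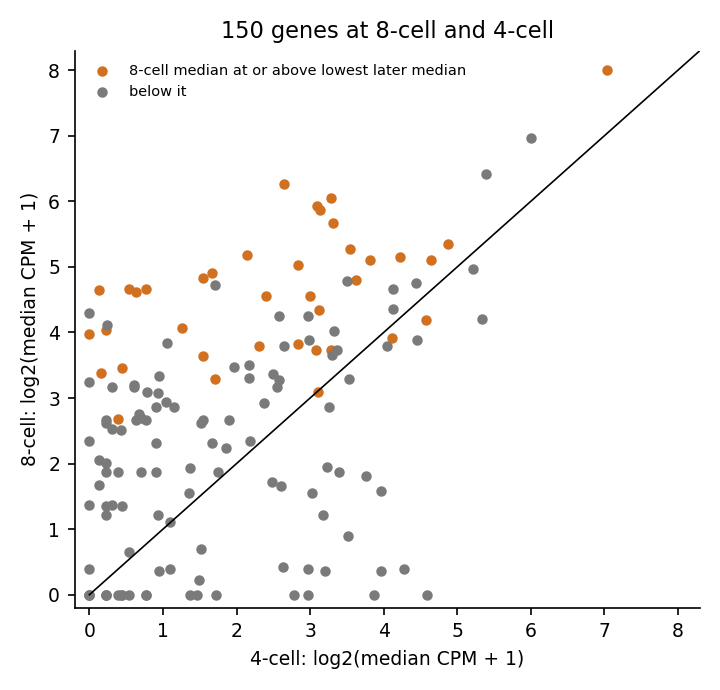
Each point is 1 of the 150 genes, with log2(median CPM + 1) at 8-cell on the y axis and at 4-cell on the x axis. The line marks equal levels, and orange points are the 38 genes whose 8-cell median was at or above their lowest later median. There are 104 genes above the line and 43 below it.

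The Comma stage, which lies between 64-78 cell and 1.5-fold, was compared with 8-cell by the same test. Of 9582 genes tested 1975 were higher at Comma, 20.6%, and 1310 lower, 13.7%, so that 60.1% of the calls were higher, a share of 74.6% with RLE scaling (2535 higher, 865 lower), 82.9% with DESeq2 (6497 higher) and 79.5% with no filter (6128 higher). The 2 scalings moved the median change over all genes to 0.86 with RLE against 0.30 with TMM, on the log2 scale. Of the 150 genes 129 were tested, of which 48 were higher at Comma and 1 was lower. With RLE 62 of 129 were higher, against 2535 of 9582 genes tested. DESeq2 called 82 of 149 higher, against 6497 of 16947 genes. With no filter 56 of 150 were higher, against 6128 of 17482 genes. In 1 fit over all H. glycines libraries 49 of 150 were higher, against 5064 of 15576 genes. With no filter and in 1 fit the share in the 150 was thus close to that of all genes tested. Without 8-cell replicate 1 or 4 the count of genes higher at Comma was 3252 and 2988, with 53 and 50 of the 150. Over all 150 genes with no filter the median change was 2.39, and over all genes 2.30. By stage medians 110 of the 150, or 73.3%, were more than 1 log2 unit higher at Comma, against 57.1% of all genes, and 14 were more than 1 unit lower, or 9.33%, against 24.7%. Every Comma embryo was above every 8-cell embryo in 42 of the 150, or 28%, against 13.6% of all genes, and below in 1, against 7.86%.

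HG03732 (contig 045, 553234 to 557954, + strand) rose most among the genes called. It had 169, 295, 123, 241 and 302 CPM at Comma and 0 counts in all 5 embryos at 8-cell, which makes it at least 1347-fold higher at Comma when 3 counts over the 8-cell embryos are taken as the limit (edgeR adjusted p = 8.53e-05). The Comma embryos were also far above the other stages, since no later embryo outside Comma exceeded 45.9 CPM. HG07626 (contig 107, 29667 to 44339, − strand) had 263, 0, 1551, 1790.4 and 331 CPM at Comma, against 12.2, 13.0, 2.66, 0 and 0 CPM at 8-cell. Its change was 6.85 on the log2 scale (SE 1.70, edgeR adjusted p = 0.00589), although Comma replicate 2 had no count.

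HG16322 (contig 225, 175344 to 176022, − strand) was the 1 gene that was lower at Comma. It had 0, 0, 11.6, 1.64 and 0 CPM at Comma, against 48.1, 23.8, 58.6, 49.9 and 65.9 CPM at 8-cell, a change of −4.55 on the log2 scale (SE 1.53, edgeR adjusted p = 0.0303). The groups do not overlap. Over the alternatives tried the adjusted p was between 0.00254 and 0.0826. It was 0.0541 without 8-cell replicate 5 and 0.0610, 0.0826 and 0.0557 without Comma replicates 2, 4 and 5, so that the call rests on these embryos, and 3 of the 150 were lower without Comma replicate 1. At 1.5-fold, the next stage, the gene was again at 38.3, 86.4, 77.6, 0.868 and 21.8 CPM.

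The Comma values moved with the genomic span of the genes. Among all genes tested, the share called higher at Comma was 15.8%, 14.3%, 19.5% and 32.8% in the 4 groups of similar size ordered from the shortest to the longest spans. Of the members tested 5 of 18, 4 of 22, 17 of 43 and 22 of 46 were called in the same groups. The 150 genes had a median span of 3.85 kb, introns included, while that of all genes was 2.04 kb. It was 2.88 kb in the 5507 other genes with a lowest later level as high as that of the lowest member. Comma was above 1.5-fold in 57 of the 75 longer genes and in 31 of the 75 shorter ones, with median log2 differences of 1.42 and −0.38. The part that span or the Comma libraries had in the higher levels of the 150 genes was not tested. At Comma 117 of the 150 were at or above their lowest later level, 68 of the 75 longer and 49 of the 75 shorter, 76 were above all 6 other later levels, and 13 were at or below the early level. No share over all genes was worked out for these counts, so that nothing is read from them about the 150.

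After the 24-44 cell stage the genes of the set followed several courses. The highest later level was at 24-44 cell in 14 genes, at 64-78 cell in 14, at 1.5-fold in 42, at 2-fold in 27, at Moving in 23 and at L1 in 30. Rebuilt without replicate number 2 the set had 26 genes highest at 1.5-fold and 42 at 2-fold, without number 4 it had 9 highest at 24-44 cell, and with TMM library sizes 17 at 2-fold. For orientation, 5507 other genes had a lowest later level as high as that of the lowest member, 3.83 CPM. Their highest later level was at 24-44 cell in 26.9%, at 64-78 cell in 33.0%, at 1.5-fold in 12.8%, at 2-fold in 11.9%, at Moving in 6.43% and at L1 in 8.99%. These other genes were present from the start in most cases, since the higher early level had a median of 117 CPM and was at or above the lowest later level in 4803 of them. The later stages took part in the choice of the 150, so that the contrast is a description without a test.

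**Figure D5:**
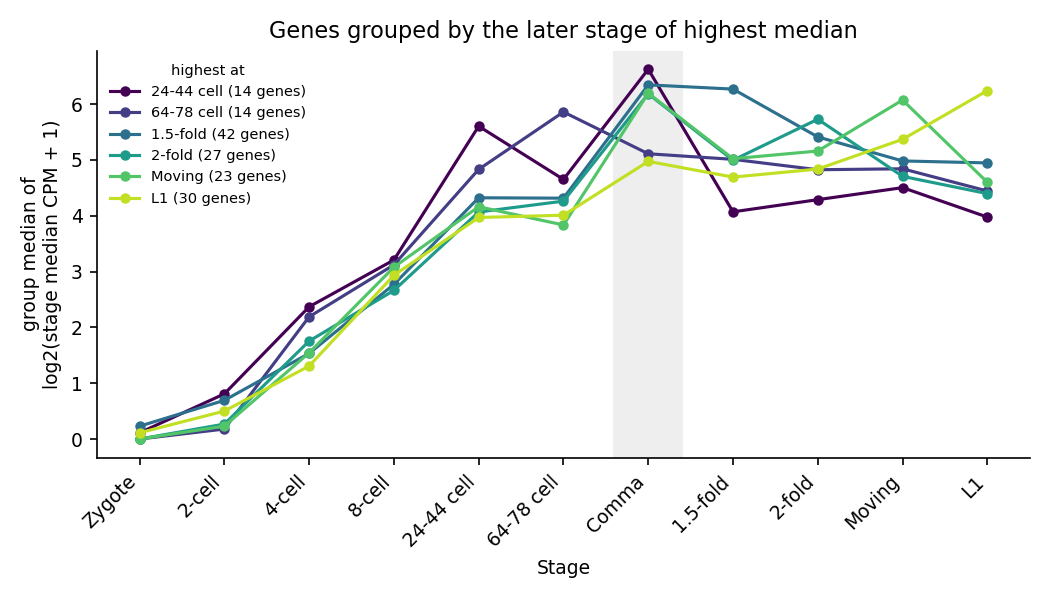
The 150 genes grouped by the later stage at which their median was highest, with the number of genes in each group in the legend. Lines join the group medians of log2(stage median CPM + 1) by stage, and the grey band marks Comma, which took no part in the choice or the grouping. At Comma the groups have medians between 30.4 and 97.6 CPM, and at 8-cell between 5.33 and 8.24 CPM.

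The lowest later level fell most often at the earliest of the later stages, at 24-44 cell in 47 genes and at 64-78 cell in 38, and then at L1 in 30. The group that was highest at L1 had a median of 14.6 CPM at 24-44 cell, 24.8 CPM at 1.5-fold and 74.6 CPM at L1. The group that was highest at 24-44 cell had 14.7 CPM at L1, against 47.6 CPM at 24-44 cell. These groups were formed from the same levels, so that each is high at its own stage by definition, and the values only describe them. The ratio of the highest to the lowest later level had a median of 4.87 and was under 2 in 12 genes, under 4 in 61 and 10 or more in 35. The later levels thus lay 4-fold or more apart in most genes of the set. In the 5507 other genes the ratio had a median of 3.52. The part that the spread between embryos had in these ratios was not tested.

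By stage medians, HG07780 (contig 112, 426824 to 433344, − strand) was the steadiest of the genes with at least 10 CPM at every later stage. Its levels were 259, 340, 257, 251, 225 and 271 CPM at the 6 later stages of the rule in order, a ratio of 1.51. Single embryos lay between 74.6 and 474 CPM at 24-44 cell and between 271 and 377 CPM at 64-78 cell. At Comma, which the rule did not use, the median was 85.3 CPM, with embryos between 19.1 and 470 CPM. HG07780 was also among the genes that were on early. At 8-cell it had 631, 90.9, 254, 445 and 199.7 CPM, against 132, 161, 52.2, 40.2 and 129.7 CPM at 4-cell, a change of 1.51 on the log2 scale (SE 0.54, edgeR adjusted p = 0.421), and the groups overlap. At 2-cell it was already at a median of 43.2 CPM, the highest early level in the set.

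HG15657 (contig 212, 608448 to 609215, + strand) had the widest later range under the same condition, a ratio of 77.4. Its level was 16.8 CPM at 24-44 cell and 18.4 CPM at 64-78 cell. It was 396 CPM at 1.5-fold, 99.3 CPM at 2-fold, 147 CPM at Moving and 1304 CPM at L1, where the 5 embryos had 1348.5, 1304, 797, 1240.3 and 1917 CPM. The lowest L1 embryo was exceeded by 1 embryo at 1.5-fold, with 843 CPM, and by 1 at Moving, with 1061 CPM.

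HG11422 (contig 169, 871 to 3437, − strand) had the highest lowest later level per kb of genomic span, 188 CPM per kb. Its levels at the 6 later stages were 509.9, 665, 796, 482, 857 and 742 CPM, with 0 in 24-44 cell replicate 1 and in Moving replicate 1. At Comma it had 9.79, 87.3, 2.31, 8.20 and 0 CPM, against 17.3, 18.1, 2.66, 111 and 44.1 CPM at 8-cell, a log2 change of −0.78 (SE 1.35, edgeR adjusted p = 0.671). The Comma median of 8.20 CPM was thus below the early level of this gene, 27.4 CPM at 2-cell, and above its 5.52 CPM at Zygote. The stages on both sides of Comma were high.

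Embryos of a stage differed more in these genes than in the 5507 others. The median SD of log2(CPM + 1) within a stage was 1.68 in the 150 genes and 0.785 in the others at 4-cell, 1.86 and 0.945 at 8-cell, 1.65 and 0.804 at 24-44 cell, 0.930 and 0.541 at 64-78 cell, 0.881 and 0.585 at 1.5-fold and 1.02 and 0.692 at L1. At Comma the order was the other way round, with 1.57 and 1.63. The 150 genes had lower levels, with medians of 2.22 CPM at 4-cell and 27.4 CPM at L1, against 94.8 and 54.5 CPM in the others, and the part of the level in the spread was not tested. A whole embryo is measured as 1 sample, so fewer cells with a transcript and less of it per cell cannot be told apart.

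The genes were spread over the genome. They lay on 69 of 238 contigs, with 65 on the + strand and 85 on the − strand, while 49.6% of all genes were on the + strand. No span of the 150 overlapped that of another gene. On 8 contigs there were 5 or more, the most being 8 of 432 genes on contig 184, 8 of 874 on contig 193 and 7 of 301 on contig 212. These are 1.85%, 0.915% and 2.33% of the genes there, and the 150 are 0.823% of all genes. Next to each other in gene order were 3 pairs.

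The pair HG15667 (− strand, 637677 to 639400) and HG15668 (+ strand, 639808 to 640427) on contig 212 lay 407 bases apart on opposite strands. Among the 6 later stages of the rule both were highest at 2-fold, with medians of 10.6 and 31.5 CPM. For HG15667 Moving was close to this, at 10.1 CPM, and Comma was higher, at 18.5 CPM. At 4-cell HG15667 had 19.6, 1.81, 5.90, 40.1 and 0 CPM and HG15668 had 73.8, 2.04, 14.6, 37.2 and 0 CPM in the same 5 embryos, so that both were high in replicates 1 and 4 and at 0 in replicate 5. At Comma they parted, with 73.2, 0, 18.5, 23.5 and 14.6 CPM for HG15667 and 2.88, 1.66, 0, 0 and 0 CPM for HG15668.

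HG01198 (− strand, 303404 to 304099) and HG01199 (+ strand, 304607 to 305231) on contig 021 were 507 bases apart. HG01198 had 0 counts in all 5 Comma embryos and a median of 50.8 CPM at 64-78 cell, its highest stage. HG01199 had 10.4, 12.5, 16.2, 24.6 and 0 CPM at Comma and was highest at Moving, at 147 CPM. The pair HG12295 (+ strand, 1888341 to 1890690) and HG12296 (− strand, 1890907 to 1892175) on contig 172 was 216 bases apart. At 8-cell HG12295 was at 0 in every embryo while HG12296 had 49.3, 12.3, 0, 0 and 0 CPM, and they were highest at 2-fold and at 1.5-fold.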

How the data were processed

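Per the study's methods, the authors cleaned the reads with fastp (version 0.20.1), used HISAT2 for alignment and HTSeq for counting. Neither the strand setting nor the H. glycines genome build is given in the sources used here, and coordinates are those of the deposited table. The deposited values are raw whole-number counts without molecular identifiers, so limits from counts cover counting error only. The members, lists and tests were chosen with earlier results of these data known.

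Stages were compared over their own libraries with TMM scaling, filterByExpr and the 2-sided quasi-likelihood test of edgeR (version 4.0.16, R version 4.3.3), and p was adjusted by Benjamini-Hochberg over all genes tested, with a threshold of 0.05. As alternatives, DESeq2 (version 1.42.0), RLE scaling, an unfiltered table, a block for the replicate number, 1 fit over all H. glycines libraries and leaving out single libraries were run. For the choice of genes, the alternatives were pseudocounts of 0.1 and 10 CPM, means for medians, TMM library sizes, Moving replicate 2 kept, Comma included and each replicate number left out. Leaving out Zygote replicate 3 or Moving replicate 1, thinning to 750757 counts and TMM sizes for the count of groups without overlap were chosen after seeing the data.

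The genes named were the 3 with the highest scores, the last inside and the first outside the limit, up to 2 called in each direction of a test whose higher stage averaged 10 CPM or more, those with the smallest and largest later ratio among genes with at least 10 CPM at every later stage, the one with the highest lowest later level per kb of span, adjacent pairs, and the 2 highest at 4-cell and 2 lowest at 8-cell relative to the lowest later level, with ties resolved by the score. Calculations used Python (version 3.11.15).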

Additional observations from a re-analysis of the deposited data

Results flagged for a closer look

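Within stages of 4 or 5 embryos, 4 of 33 sets of values held an embryo farther from the others than Dixon's ratio allows at the 95% level. Chance flags about 1 in 20 independent sets, but these sets share embryos, and 3 of the 4 are from stages whose medians chose the genes, so that they are given as a description. At 4-cell, replicate 2 had 59 of the 150 genes at or above their lowest later level, and the other embryos had 22 to 28. At 24-44 cell, replicate 3 had 61 such genes, and the others had 105 or more. At 1.5-fold, replicate 4 had a count in 138 of the 150 genes, and the others in at least 149, although its total of 9215425 counts was the highest of the stage. At 2-fold, replicate 2 had a count in 131 of the genes, and the others in 148 to 150. The same embryos were also the lowest of their stages in genes at or above the lowest later level, with 90 at 1.5-fold and 80 at 2-fold.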

How the results depend on the processing

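For 8-cell against 4-cell, where edgeR called 0 genes, 485 genes were called with DESeq2 (366 lower), 237 with no filter (216 lower), 215 with all H. glycines libraries in 1 fit (198 lower) and 0 to 130 with 1 library left out (0 to 105 lower). Of the 150 genes, DESeq2 called 1 higher and 1 lower, and the other alternatives called 0. For Comma against 8-cell, genes called higher numbered 6497 with DESeq2, 6128 with no filter, 5064 in 1 fit and 1785 to 3252 with 1 library left out, and genes called lower 865 with RLE and 2625 in 1 fit. DESeq2 called 82 of the 150 higher. Of the 150, 2 were lower with no filter and in 1 fit, and 0 to 3 with 1 library left out. HG03732 and HG07626 stayed called under every alternative run. The causes of these differences were not tested.

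The replicate numbers showed no clear pairing of the embryos, which was not tested further. For 8-cell and 4-cell the correlation of deviations was −0.0105 to 0.0699 in same-numbered embryos and −0.176 to 0.108 in the others. For Comma and 8-cell it was −0.0951 to 0.0515 in same-numbered embryos and −0.0974 to 0.0812 in the others. With the replicate number as a block, 46 genes were called between 8-cell and 4-cell, 43 of them lower, with 0 of the 150. At Comma 2114 were higher and 1290 lower, of which 44 and 1 were among the 150.

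Of the 150 genes, 80 were chosen again with a pseudocount of 0.1 CPM, 83 with 10 CPM, 59 with means, 135 with TMM sizes, 146 with Moving replicate 2 kept, 126 with Comma included, 127 without Zygote replicate 3, 122 without Moving replicate 1 and 71 to 101 without 1 replicate number. In the rebuilt sets, the genes in their later range were 60 at 8-cell and 26 at 4-cell with means, 45 to 66 at 8-cell and 17 to 35 at 4-cell without 1 replicate number, and 25 at 4-cell without Moving replicate 1. With TMM sizes 26 were in range at 8-cell and 14 at 4-cell. Levels under about 1 CPM rest on few counts in the shallow libraries, and a gene at 0 in Zygote replicate 3 may be below its depth of 181109 counts.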
